A study of Mus musculus with 6 samples.

Results

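The genes described here are 55 mouse genes of protein entry, folding and quality control in the endoplasmic reticulum (ER), out of 49671 genes counted. They were chosen by symbol, as sensors of unfolded protein, chaperones and their J-domain partners, protein disulfide isomerases, subunits of the targeting and translocation machinery, signal peptidase and the translocon-associated TRAP complex, oligosaccharyltransferase subunits, factors of ER-associated degradation and COPII coat subunits. All 55 symbols were found in the count table, and all 55 passed the filter on low counts. The ER is where secreted proteins are threaded through the Sec61 channel, stripped of their signal peptide, glycosylated, oxidised and folded. Proteins that fail to fold are drawn back to the cytosol through a membrane complex built on the ubiquitin ligase Hrd1 and its partner Sel1l, and degraded. When unfolded protein builds up, Ire1, Atf6 and Perk signal to the nucleus, and the exocrine pancreas, which secretes digestive enzymes in bulk, depends heavily on this machinery.

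The study asked what AMI-5 does to the differentiation of the mouse pancreas. AMI-5 is a small molecule known as an inhibitor of protein methyltransferases, in the main those that act on arginine. Total RNA of embryonic pancreas of strain C57BL/6J, at embryonic day 14.5, was sequenced from 3 samples given AMI-5 at 10 µM and from 3 control samples. What the controls received, how long treatment lasted and whether the samples came from separate animals or cultures are not stated in the labels, so p-values measure only the spread between these samples.

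The AMI-5 libraries held 22894312 to 24805188 counted reads, and the control libraries 12445425 to 13321899. The labels name Ultra I as the library kit of samples marked A and the later version Ultra II otherwise. The titles mark the controls A and the AMI-5 samples Am, so, read literally, kit version and treatment cannot be told apart in any comparison here. The tissue label fits the markers: 22 genes of acinar (enzyme-secreting) cells took 16.9%, 14.6% and 17.6% of reads in the AMI-5 libraries and 8.41%, 8.45% and 6.33% in the controls. Of these 22 genes, 17 rose with AMI-5 (77.3%) and 0 fell, while 27.5% of all genes tested rose and 26.6% fell. AMI-5 library 2 stood apart in liver and gut markers, which took 0.148% of its reads, against 0.0215% and 0.0241% in the other AMI-5 libraries and 0.0416% to 0.0451% in controls. Reads of the liver gene Alb came to 596 CPM (read counts scaled to a common library size) in AMI-5 library 2 and to 7.18 to 17.6 CPM in the other 5 libraries. Leukocyte markers took 0.0511% to 0.0571% of reads with AMI-5 and 0.0331% to 0.0401% in controls, and markers of plasma cells, another secretory cell type, took at most 0.000266% in any library. Erythroid markers took 0.00904%, 0.0231% and 0.0076% of reads in the AMI-5 libraries and 0.00156%, 0.00128% and 0.00347% in controls, with AMI-5 library 2 again the highest. Of the 6 erythroid markers tested, 5 were higher with AMI-5 and 1, the embryonic globin Hbb-y, was lower; the 5 share 11.5% to 89.3% of their sequence and are uncertain. The part of these other cell types in the results was not tested.

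The 55 genes together took 1.69%, 1.61% and 1.62% of reads in the AMI-5 libraries and 1.66%, 1.70% and 1.58% in the control libraries, so their share of reads was alike in both groups while single genes moved. In CPM, scaled as for the tests, they summed to 17510, 16440 and 16990 with AMI-5 and to 16470, 16550 and 14920 in controls. The ratio of those means was 1.06. By edgeR's quasi-likelihood test with Benjamini-Hochberg adjustment over 17519 genes, 25 of the 55 were higher with AMI-5 (45.5%), 8 were lower (14.5%) and 22 did not pass an adjusted p of 0.05. Among all genes tested, 27.5% were higher and 26.6% lower. All 55 genes code for protein, and of the 14571 protein-coding genes tested 20.1% were higher and 30.6% lower. Both pairs of shares are to be set beside the counts of each role below. The median log2 fold change (AMI-5 over control) was 0.13 for the 55 genes and 0 for all genes. In 28 of the 55 genes (50.9%) every AMI-5 library lay above every control library, which held for 31.3% of all genes, and in 9 (16.4%) every AMI-5 library lay below, which held for 30.6%. The share that was higher was therefore above the share among all genes, and the share that was lower was below it, but most of the changes were small: 22 of the 25 higher genes and all 8 lower genes changed by less than a factor of 2. In bulk tissue, a change in the share of a cell type and a change of RNA per cell cannot be told apart, and the part of the acinar markers, which moved with treatment, in these results was not tested.

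**Figure D1:**
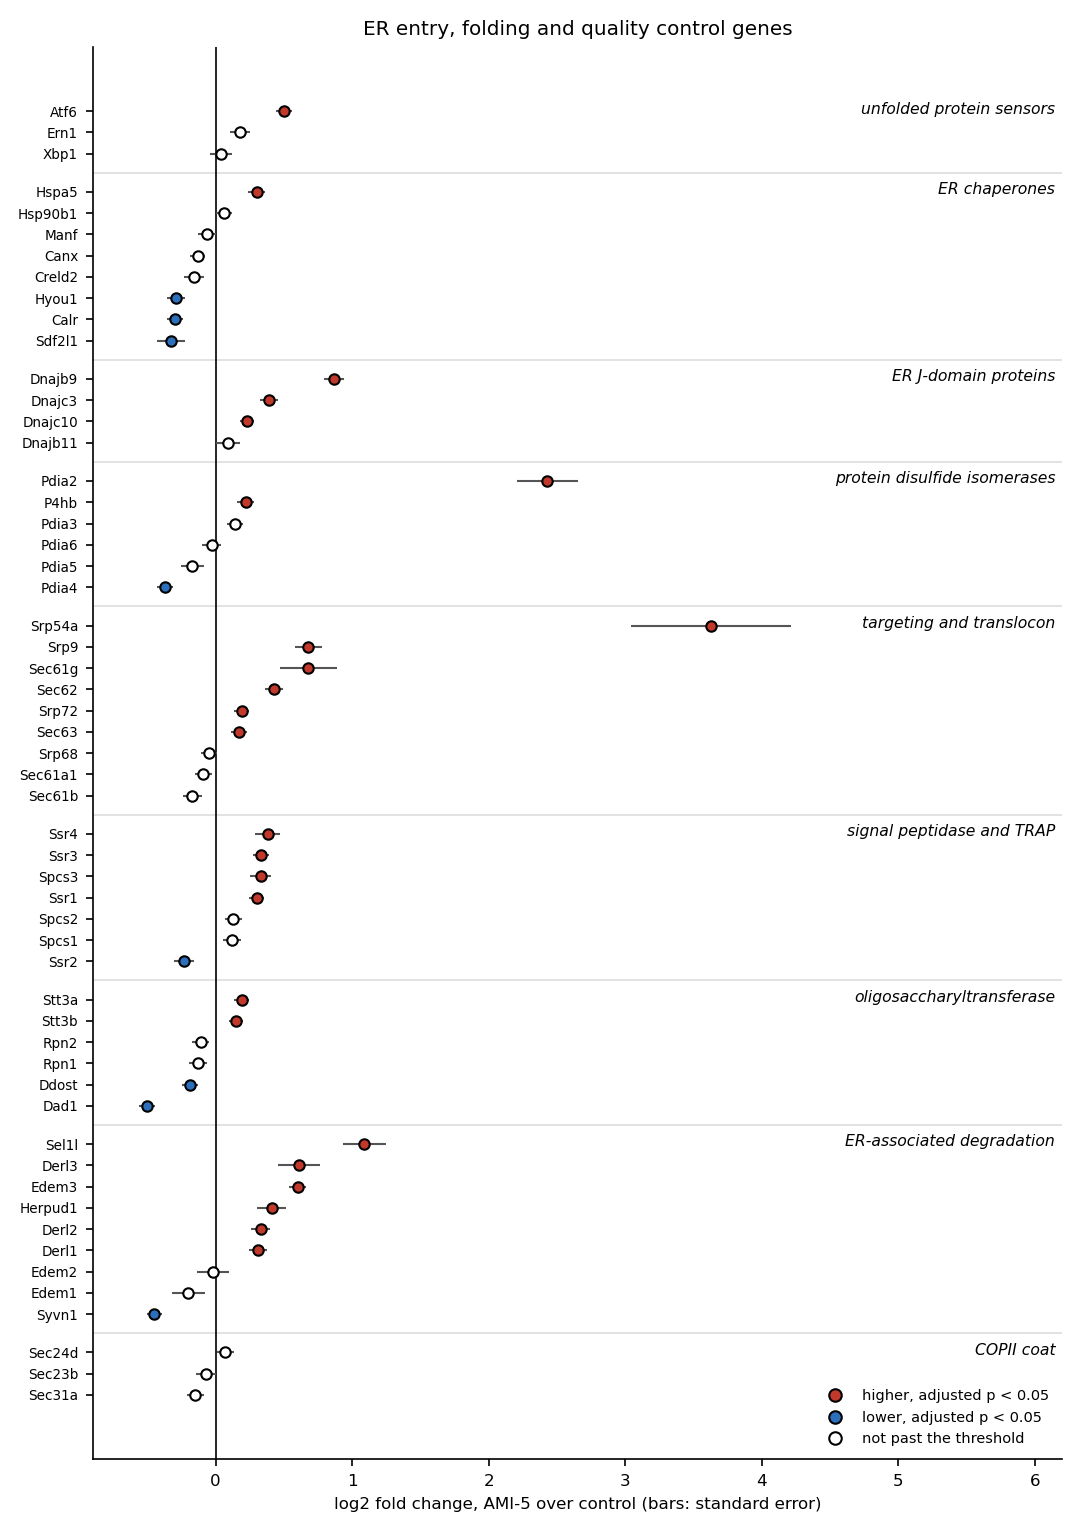
Log2 fold change (AMI-5 over control) of each of the 55 genes, ordered within roles, with bars of 1 standard error; red points passed the test as higher, blue as lower, and open points did not pass. Pdia2, Srp54a and Sel1l lie farthest right, Dad1 and Syvn1 farthest left, and degradation, J-domain and targeting genes lie mostly to the right of 0.

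Base composition moved with the result. Across the 55 genes the log2 fold change fell with GC content of the transcripts (Spearman's rho -0.45), much as it did across 10915 protein-coding genes that share little sequence with other genes (rho -0.47). Both figures are across genes, which share libraries and are not replicates. Of the 27 genes of lowest GC content (40.2% to 48.5%), 18 rose and 0 fell, and the median log2 fold change was 0.30. Of the 28 of highest GC content (48.6% to 58.8%), 7 rose and 8 fell, and the median was -0.10. After smooth trends with GC content and transcript length were removed in each library, 16 genes were higher (29.1%) and 7 lower (12.7%), against 23.1% and 24.3% of all genes, and the median of the 55 was 0.01. The share of higher genes was then closer to that of all genes. Of 14571 protein-coding genes, 20.1% were higher and 30.6% lower as tested, and 15.3% were higher and 28.0% lower with the trends removed, so beside those the 55 genes had more rises and fewer falls in both fits. In both fits, 15 genes were higher, namely Atf6, Hspa5, Dnajb9, Dnajc3, Pdia2, P4hb, Srp9, Srp54a, Ssr1, Ssr4, Edem3, Sel1l, Derl1, Derl3 and Herpud1. The 5 genes lower in both fits were Calr, Pdia4, Ssr2, Dad1 and Syvn1. Of the genes called in both fits, Dnajb9, Srp9, Srp54a, Derl1 and Ssr2 share sequence with other genes and are uncertain. Whether the trends come from the kit, the treatment or both cannot be told apart.

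**Figure D2:**
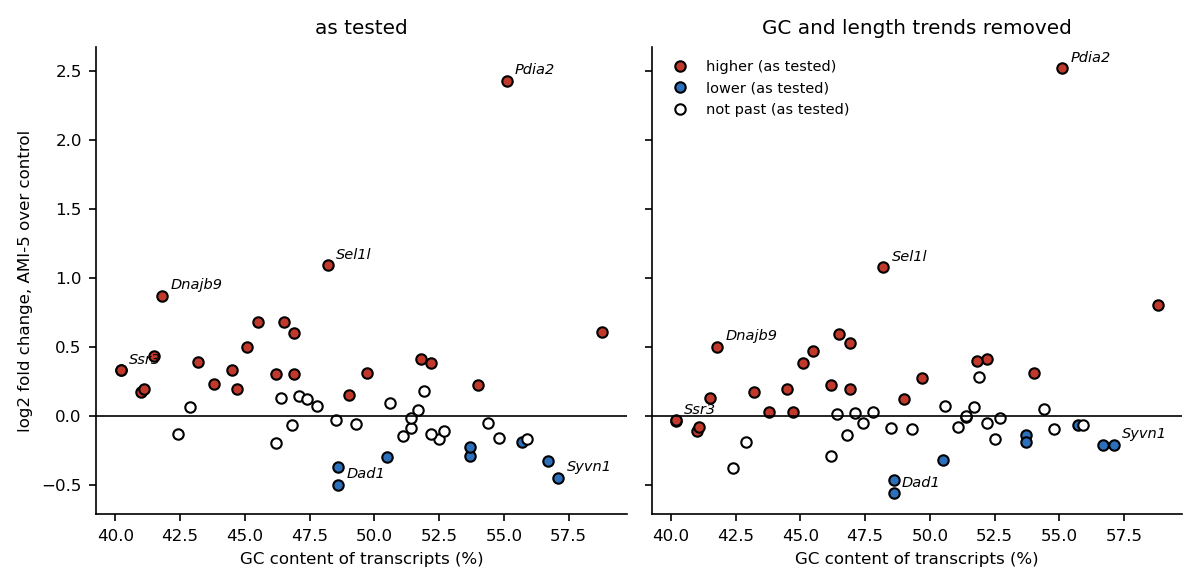
Log2 fold change (AMI-5 over control) against GC content of the transcripts in percent, as tested (left) and after removal of GC and length trends (right); each point is a gene, coloured by its call as tested. Srp54a (log2 fold change 3.63 as tested, GC content 42.0%) lies above both panels and is not drawn. The slope on the left is much weaker on the right, where Pdia2, Sel1l and Dnajb9 remain high and Dad1 low.

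Sequence shared between genes could let reads of a gene and its copies be assigned to either, and how such reads were treated is not stated. In 13 of the 55 genes, at least 5% of the 50-base stretches of the transcripts also occur in another annotated gene, and these are uncertain: Hsp90b1, Manf, Dnajb9, Sec61a1, Sec61b, Sec61g, Sec62, Srp9, Srp54a, Spcs1, Ssr2, Rpn2 and Derl1. The counts were much alike without them. Of the other 42 genes, 19 rose (45.2%) and 7 fell (16.7%), and the median was 0.14. Among all 10915 genes with as little shared sequence, 19.6% rose and 30.3% fell, and the median was -0.06. Pseudogenes that share sequence with the 55 genes rose where tested. Their log2 fold changes ran from 0.52 (1810014B01Rik, of Hsp90b1) to 7.81 (Gm6568, of Dnajb9). Coding genes that share sequence went either way, as Srp54c (1.15) and Pdzd2 (-0.74) did. A sum with copies added, as given below for some genes, can therefore show the copies rather than the gene.

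The sensors are known to set the levels of many of the other genes. Atf6, a membrane-bound factor released from the ER and cut in the Golgi, was higher with AMI-5. Its gene lies at chr1:170704674-170867771 on build mm10. It had 87.7, 88.3 and 90.9 CPM in the AMI-5 libraries and 65.9, 63.8 and 59.5 CPM in the controls. The groups did not overlap, and the log2 fold change was 0.50 (SE 0.059, adjusted p = 2.26e-05, edgeR). Ern1 encodes Ire1, the kinase and nuclease that splices Xbp1 mRNA. It had 88.8, 92.3 and 100 CPM with AMI-5, against 75.2, 86.9 and 87.2 CPM in controls, a log2 fold change of 0.18 that did not pass (SE 0.073, adjusted p = 0.060, edgeR) although the groups did not overlap; it passed in 10 of the alternative fits, among them the fit without GC and length trends (0.28, adjusted p = 0.00241). Xbp1, the transcription factor made from the spliced mRNA, had 458, 439 and 472 CPM with AMI-5 and 466, 484 and 385 CPM in controls. Its groups overlapped, and its log2 fold change was 0.04 (SE 0.080, adjusted p = 0.721, edgeR); gene counts do not show how much of its mRNA was spliced. Per kilobase of transcript, Xbp1 was the most abundant of the 3, at 141 CPM with AMI-5 and 137 CPM in controls.

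Promoter sequence bears on the chaperones and degradation factors, since Atf6 and spliced Xbp1 are known to bind the ER stress response element (ERSE), which reads CCAAT, then any 9 bases, then CCACG, and its shorter relative ERSE-II, which reads ATTGG, any base, then CCACG. RefSeq promoter windows on GRCm38.p6, from 250 bases before to 50 bases after the gene start, were at hand for 47 of the 55 genes (not for Atf6, Hyou1, Manf, Sec61a1, Srp68, Spcs3, Ssr2 and Derl1), and both strands were searched. ERSE letters were found in 9 of the 47 genes (19.1%), against 37 of 27025 genes with a window (0.137%). The genes were chosen by symbol from this machinery, so the larger share among them is not an independent result. Most of the 47 genes had no ERSE match. Each site is written on the strand that reads CCAAT first, with the fixed letters in capitals and the free 9-base spacer in lower case.
Hspa5: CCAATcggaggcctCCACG
Hsp90b1 (site on the gene strand): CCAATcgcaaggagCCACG
Hsp90b1 (site on the other strand): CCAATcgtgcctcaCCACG
Calr: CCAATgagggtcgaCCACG
Canx: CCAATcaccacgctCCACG
Creld2: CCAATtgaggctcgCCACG
Dnajc3: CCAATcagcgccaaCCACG
Pdia6: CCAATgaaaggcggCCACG
Syvn1: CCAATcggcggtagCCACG
Derl3: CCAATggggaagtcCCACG
The ERSE-II letters were found in 2 of the 47 genes (4.26%), against 12 of the 27025 (0.0444%), and are written in the same way.
Dnajb11: ATTGGcCCACG
Herpud1: ATTGGgCCACG

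Whole windows are given for 4 genes that the results turn on. They are Hspa5, with an ERSE and a rise, Syvn1, with an ERSE and a fall, Herpud1, with an ERSE-II and a rise, and Sel1l, with no match and the largest rise of the degradation genes. In order they lie at chr2:34771840-34772139 on the plus strand, chr19:6046326-6046625 on the plus strand, chr8:94386179-94386478 on the plus strand and chr12:91849108-91849407 on the minus strand. Capitals mark ERSE, ERSE-II and, in Herpud1, the amino acid response element TGATGCAA read on the other strand.
Hspa5: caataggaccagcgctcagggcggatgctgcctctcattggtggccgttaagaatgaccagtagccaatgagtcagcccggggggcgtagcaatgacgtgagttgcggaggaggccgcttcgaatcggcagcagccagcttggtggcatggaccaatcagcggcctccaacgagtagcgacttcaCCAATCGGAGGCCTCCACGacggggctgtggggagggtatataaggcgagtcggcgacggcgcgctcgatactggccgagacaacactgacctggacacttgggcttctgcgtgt
Syvn1: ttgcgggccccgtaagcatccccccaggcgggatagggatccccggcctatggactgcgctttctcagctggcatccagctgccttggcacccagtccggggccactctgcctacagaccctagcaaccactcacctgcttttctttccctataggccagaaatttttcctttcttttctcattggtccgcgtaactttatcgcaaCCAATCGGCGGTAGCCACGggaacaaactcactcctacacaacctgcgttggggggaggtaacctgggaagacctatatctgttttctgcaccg
Herpud1: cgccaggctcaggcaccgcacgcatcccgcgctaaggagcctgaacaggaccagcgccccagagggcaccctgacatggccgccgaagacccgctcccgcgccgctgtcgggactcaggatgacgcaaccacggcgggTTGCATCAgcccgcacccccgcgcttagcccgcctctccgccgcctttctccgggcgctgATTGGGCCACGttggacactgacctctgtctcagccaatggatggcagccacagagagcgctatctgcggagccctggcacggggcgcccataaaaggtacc
Sel1l: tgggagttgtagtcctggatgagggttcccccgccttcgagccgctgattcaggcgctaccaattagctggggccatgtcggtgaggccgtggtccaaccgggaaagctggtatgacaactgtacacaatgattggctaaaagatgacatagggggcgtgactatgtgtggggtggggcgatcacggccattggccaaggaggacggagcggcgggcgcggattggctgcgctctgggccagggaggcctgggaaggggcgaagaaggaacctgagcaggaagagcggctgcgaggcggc
The 9 genes with ERSE letters split 3 ways: Hspa5, Dnajc3 and Derl3 were higher, Calr and Syvn1 were lower, and Hsp90b1, Canx, Creld2 and Pdia6 did not pass. Their median log2 fold change was -0.03, against 0.16 for the 38 genes with a window and no match. A match is a description of letters, not evidence of binding, and the absence of these letters says nothing about Atf6 or Xbp1 at a gene. The element TGACGTGG (the unfolded protein response element) was found, of the 47 genes with a window, only in Sec24d (2.13%, against 0.714% of all genes with a window), and TGATGCAA only in Herpud1 (2.13%, against 1.03%).

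**Figure D3:**
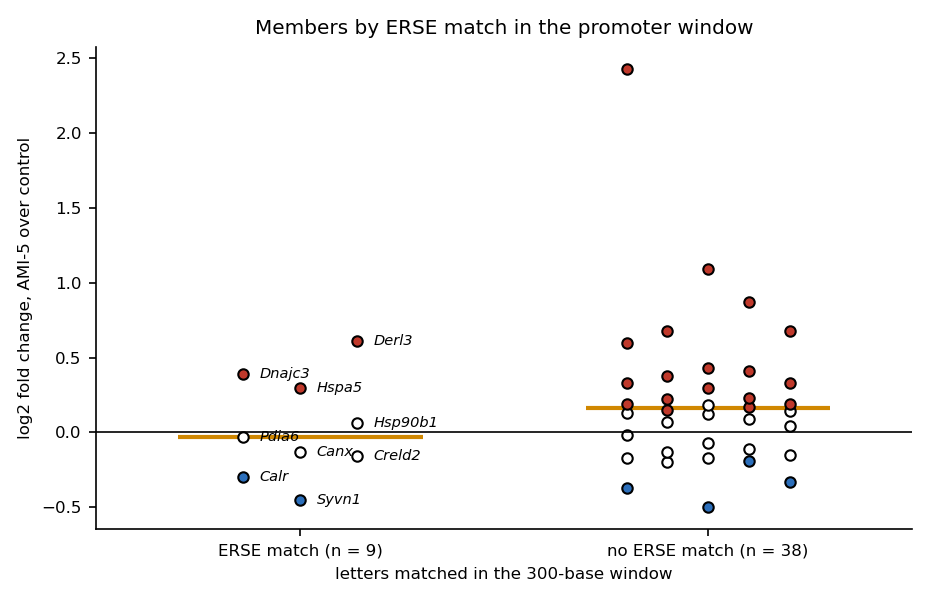
Log2 fold change (AMI-5 over control) of the 47 genes with a promoter window, split by whether ERSE letters were found; points are genes, coloured red for higher, blue for lower and white for not past the threshold, and orange bars are medians (-0.03 with a match, 0.16 without). Srp54a, in the group without a match, lies above the axis at 3.63 and is not drawn. Genes with a match lie on both sides of 0.

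Among the 8 chaperones, 1 was higher, 3 were lower and 4 did not pass, and their summed level was 4853 ± 187 CPM with AMI-5 and 4920 ± 190 CPM in controls (SD, n = 3 each). Hspa5 (BiP), the Hsp70 of the ER lumen that also holds the sensors inactive, was the gene that rose. It lies at chr2:34771970-34777547 and had 1636, 1513 and 1490 CPM in the AMI-5 libraries and 1319, 1260 and 1192 CPM in controls, without overlap (log2 fold change 0.30, SE 0.062, adjusted p = 0.00154, edgeR). The lectin chaperone Calr, which binds newly glycosylated proteins, went the other way and had the highest level per kilobase of the 8 over both groups, at 327 CPM with AMI-5 and 402 CPM in controls. Its values were 979, 884 and 959 CPM with AMI-5 and 1162, 1171 and 1138 CPM in controls, again without overlap (-0.30, SE 0.058, adjusted p = 0.000945, edgeR). Hyou1, a large Hsp70 relative that exchanges nucleotide on BiP, had 370, 359 and 383 CPM with AMI-5, against 476, 474 and 415 CPM in controls (-0.29, SE 0.064, adjusted p = 0.0022, edgeR). Sdf2l1, a partner of ER J-domain proteins, had 77.6, 63.3 and 74.7 CPM with AMI-5, against 98.1, 95.7 and 77.8 CPM in controls (-0.33, SE 0.102, adjusted p = 0.0201, edgeR). The last of these gaps is narrow, between 77.6 CPM and 77.8 CPM. Both Hyou1 (-0.14, adjusted p = 0.103) and Sdf2l1 (-0.21, adjusted p = 0.0863) missed the threshold once GC and length trends were removed, and Sdf2l1 also missed it without AMI-5 library 2 (adjusted p = 0.060).

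The other 4 chaperones lay between -0.16 and 0.06. Hsp90b1 (Grp94, the ER Hsp90, 9.75% shared sequence, uncertain) had 1045, 983 and 977 CPM with AMI-5 and 957, 1005 and 927 CPM in controls, with overlap; its log2 fold change of 0.06 turned to -0.19 (adjusted p = 0.00688, edgeR) without the trends. Canx, the membrane-bound lectin chaperone and partner of Calr, had 663, 655 and 636 CPM with AMI-5 and 722, 733 and 679 CPM in controls. Its log2 fold change was -0.13 as tested (adjusted p = 0.0705) and -0.38 without the trends (adjusted p = 4.68e-05, edgeR). Neither Creld2, a secreted stress-induced protein (-0.16), nor Manf, a BiP-binding secreted factor (-0.06, 6.17% shared, uncertain), passed in either of these 2 fits. Creld2 passed as lower in 4 of 21 alternative fits.

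The J-domain proteins, which stimulate BiP and bring it clients, were higher in 3 of 4 cases, and their summed level was 638.8 ± 26.2 CPM with AMI-5 and 520.3 ± 26 CPM in controls. Dnajb9 (ERdj4), which binds misfolded protein and represses Ire1, changed most. It lies at chr12:44205897-44210068 and had 59.6, 53.0 and 55.9 CPM with AMI-5, against 30.3, 33.0 and 29.0 CPM in controls, a 1.82-fold difference with no overlap (log2 fold change 0.87, SE 0.073, adjusted p = 1.15e-06, edgeR). It is uncertain, with 5.50% of its sequence shared with the pseudogene Gm6568; adding that gene's reads gave 0.91, and removing the trends gave 0.50. Dnajc3 (p58IPK), a co-chaperone of BiP also known to inhibit Perk, had 232, 221 and 233 CPM with AMI-5, against 186, 182 and 157 CPM in controls (0.39, SE 0.068, adjusted p = 0.000463, edgeR). Dnajc10 (ERdj5), a reductase that opens disulfides before degradation, had 216, 211 and 218 CPM with AMI-5, against 184, 180 and 187 CPM in controls (0.23, SE 0.051, adjusted p = 0.00269, edgeR). Neither gene's groups overlapped. Without the trends Dnajc3 stood at 0.17 (adjusted p = 0.0469, and 0.0643 with a replicate block as well) and Dnajc10 at 0.03 (adjusted p = 0.642). Dnajb11 (ERdj3), the most abundant of the 4 per kilobase over both groups, had 147, 123 and 146 CPM with AMI-5 and 144, 130 and 119 CPM in controls, with overlap and no call (0.09, adjusted p = 0.427).

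Of 6 protein disulfide isomerases, the enzymes that form and reshuffle disulfide bonds, Pdia2 and P4hb were higher and Pdia4 was lower. Pdia2, an isomerase known for its expression in the pancreas, lies at chr17:26195999-26199087 on mm10. It had 43.3, 37.9 and 41.0 CPM in the AMI-5 libraries, against 9.14, 8.96 and 4.47 CPM in the controls. Every AMI-5 value was more than 4 times every control value, and the log2 fold change of 2.43 (SE 0.222, adjusted p = 8.5e-05, edgeR) ranged from 2.17 to 2.59 over the alternative fits. P4hb, the founding member of the family and the most abundant of the 6 per kilobase (531 CPM with AMI-5, 457 CPM in controls), had 1593, 1500 and 1466 CPM with AMI-5, against 1372, 1313 and 1234 CPM in controls (0.22, SE 0.061, adjusted p = 0.00985, edgeR), but with library totals alone it did not pass (0.13, adjusted p = 0.0838). Pdia4 (ERp72), which works in chaperone complexes with BiP, had 309, 292 and 300 CPM with AMI-5, against 403, 395 and 362 CPM in controls (-0.37, SE 0.059, adjusted p = 0.000239, edgeR), and -0.47 without the trends. The groups of all 3 genes were apart. Pdia3 (ERp57), the partner of Calr and Canx on glycoproteins, had 878, 801 and 848 CPM with AMI-5, against 789, 777 and 724 CPM in controls, apart but not past the threshold (0.14, adjusted p = 0.0616); it passed in 8 alternative fits. Pdia5 (-0.17) and Pdia6 (-0.03), a partner of BiP, overlapped between groups.

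Targeting and translocation genes were higher in 6 of 9 cases and lower in none, but 6 of the 9 share 5% or more of their sequence with other genes, and 2 were higher once the trends were removed. The signal recognition particle carries ribosomes to the ER, and its subunits Srp9 and Srp72 rose. Srp9 had 20.2, 18.8 and 17.9 CPM with AMI-5, against 12.2, 12.1 and 11.1 CPM in controls (log2 fold change 0.68, SE 0.096, adjusted p = 8.79e-05, edgeR). It shares 17.4% of its sequence and is uncertain. Its processed pseudogene Gm13736 had 374, 319 and 341 reads with AMI-5 and 57, 49 and 52 in controls, and with those reads added Srp9 stood at 1.11. Srp72 had 209, 203 and 204 CPM with AMI-5, against 182, 188 and 169 CPM in controls (0.19, SE 0.057, adjusted p = 0.0141, edgeR). It lost its call in 4 alternative fits, at 0.03 without the trends (adjusted p = 0.631), 0.10 with library totals alone (adjusted p = 0.156) and 0.15 without control library 3 (adjusted p = 0.0654), and at 0.03 with the trends removed and a replicate block. Srp68, its partner on the RNA of the particle, overlapped between groups (-0.05, adjusted p = 0.529).

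Srp54a, the GTPase that binds the signal peptide, was counted at 19, 29 and 21 reads in the AMI-5 libraries and at 0, 2 and 1 reads in the controls. The ratio of rates was 13.4 with a 95% exact interval of 4.39 to 66.5, which covers counting error only, and the fitted log2 fold change was 3.63 (adjusted p = 0.000252, edgeR). The value is uncertain, since 70.5% of its sequence is shared. Its copy Srp54c had 1092, 1047 and 1076 reads with AMI-5 and 274, 292 and 277 in controls, and both together gave 1.18 (adjusted p = 3.6e-08).

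In the channel itself, Sec61a1, the pore subunit, was the most abundant of the targeting genes per kilobase (66.9 CPM with AMI-5, 71.1 CPM in controls). It had 461, 436 and 454 CPM with AMI-5 and 492, 498 and 445 CPM in controls, with overlap (log2 fold change -0.09, adjusted p = 0.235). Sec61b, the tail-anchored beta subunit, overlapped too (-0.17, adjusted p = 0.0575), and moved to 0 with reads of its near copies added. Sec61g, the gamma subunit, was counted at only 3.99, 3.30 and 2.79 CPM with AMI-5 and 2.09, 1.97 and 2.20 CPM in controls (0.68, SE 0.209, adjusted p = 0.0155, edgeR), and lost its call in 5 alternative fits, while adding reads of its 3 near copies gave 1.28 (adjusted p = 0.000162). All 3 share 6.5% to 17.4% of their sequence and are uncertain. Sec62, which with Sec63 helps short or slow signal peptides into the channel, had 256, 236 and 245 CPM with AMI-5, against 196, 183 and 169 CPM in controls (0.43, SE 0.065, adjusted p = 0.000151, edgeR; 10.6% shared, uncertain). Sec63, the J-domain subunit that recruits BiP to the channel, had 165, 164 and 170 CPM with AMI-5, against 151, 154 and 139 CPM in controls (0.17, SE 0.057, adjusted p = 0.0258, edgeR). With the trends removed neither passed, at 0.13 for Sec62 and -0.11 for Sec63.

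Signal peptidase cuts the signal peptide and the TRAP complex sits beside the channel; of their 7 genes, 4 were higher and 1 was lower. Among the TRAP subunits, Ssr3 had 554, 516 and 530 CPM with AMI-5, against 431, 444 and 401 CPM in controls (log2 fold change 0.33, SE 0.059, adjusted p = 0.000569, edgeR). Ssr1 had 442, 405 and 412 CPM with AMI-5, against 346, 343 and 337 CPM in controls (0.30, SE 0.055, adjusted p = 0.000747, edgeR). Ssr4, the subunit that changed most, had 259, 224 and 248 CPM with AMI-5, against 206, 196 and 161 CPM in controls (0.38, SE 0.093, adjusted p = 0.00621, edgeR). In all 3 the groups were apart. Ssr2 (11.0% shared, uncertain), the most abundant of the 7 per kilobase, fell instead, with 361, 320 and 339 CPM with AMI-5 and 426, 414 and 358 CPM in controls (-0.23, SE 0.073, adjusted p = 0.0187, edgeR). Its groups overlapped and its call ended in 5 alternative fits, including that without AMI-5 library 2. The pseudogene Gm10704, which shares 7.05% of the Ssr2 sequence, had 1075, 973 and 991 reads with AMI-5. It had 93, 88 and 89 reads in controls, and these reads were not added to Ssr2 in any fit. Spcs3, the glycosylated signal peptidase subunit, had 194, 185 and 194 CPM with AMI-5, against 153, 168 and 134 CPM in controls (0.33, SE 0.075, adjusted p = 0.00281, edgeR). Spcs1 (10.6% shared, uncertain) and Spcs2 did not pass, at 0.12 and 0.13. With reads of its near copy added, Spcs2 passed (0.25, adjusted p = 0.00449, edgeR). That copy, Spcs2-ps, had 456, 427 and 447 reads with AMI-5 and 7, 10 and 3 in controls. Without the trends Ssr1 stood at 0.22, Ssr4 at 0.41, Ssr3 at -0.03 and Spcs3 at -0.04, so only the first pair kept a call as higher.

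Oligosaccharyltransferase, which transfers the preformed glycan to nascent protein, divided between its subunits. Dad1, a small subunit whose loss is known to trigger apoptosis, fell. It lies at chr14:54235479-54254104 and had 105, 95.7 and 98.6 CPM with AMI-5, against 143, 143 and 138 CPM in controls, without overlap (log2 fold change -0.50, SE 0.058, adjusted p = 1.78e-05, edgeR; -0.56 without the trends). Ddost, a subunit of the shared core and the most abundant of the 6 per kilobase, had 357, 339 and 349 CPM with AMI-5, against 406, 412 and 369 CPM in controls (-0.19, SE 0.059, adjusted p = 0.0196, edgeR). The catalytic subunits moved up: Stt3a, of the form bound to the translocon, had 368, 366 and 365 CPM with AMI-5, against 315, 338 and 311 CPM in controls (0.19, SE 0.054, adjusted p = 0.0118, edgeR). Stt3b, of the form that also acts after translocation, had 276, 288 and 270 CPM with AMI-5, against 247, 246 and 257 CPM in controls (0.15, SE 0.054, adjusted p = 0.0292, edgeR). The groups of these 3 did not overlap, yet Ddost lost its call in 9 alternative fits and Stt3b in 6, and none of the 3 passed without the trends. Rpn1 and Rpn2 (5.14% shared, uncertain), core subunits that hold the substrate and the ribosome, overlapped, at -0.13 and -0.11.

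ER-associated degradation showed the largest summed difference of the 9 roles, 1804 ± 71.9 CPM with AMI-5 and 1340 ± 187 CPM in controls, a ratio of 1.35, and 6 of its 9 genes were higher. Sel1l, the adaptor that holds the Hrd1 ligase complex together, made up most of that difference and was at 89.2 CPM per kilobase with AMI-5, the highest of the 9, and at 41.8 CPM per kilobase in controls, where Edem2 (65.6), Edem1 (45.3) and Herpud1 (42.0) lay above it. It lies at chr12:91806043-91849157 on mm10 and had 714, 767 and 807 CPM in the AMI-5 libraries, against 378, 420 and 276 CPM in the controls. The groups were far apart, at 2.13-fold (log2 fold change 1.09, SE 0.155, adjusted p = 0.00127, edgeR), with 0.93 to 1.22 over the alternative fits. Syvn1, which encodes Hrd1, the ligase that Sel1l serves, lies at chr19:6046576-6053712 and went the opposite way, with 77.6, 75.8 and 78.6 CPM with AMI-5, against 106, 110 and 102 CPM in controls (-0.45, SE 0.056, adjusted p = 3.24e-05, edgeR). Without the trends Syvn1 stood at -0.21 (adjusted p = 0.00603) and Sel1l at 1.08. The ratio of Sel1l to Syvn1 in CPM, not scaled by length and with the trends left in, was 9.20, 10.1 and 10.3 in the AMI-5 libraries and 3.58, 3.82 and 2.71 in the controls.

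Edem3, a mannosidase that marks glycoproteins for degradation, lies at chr1:151755371-151822051 and had 140, 142 and 153 CPM with AMI-5, against 97.6, 99.8 and 89.2 CPM in controls, without overlap (log2 fold change 0.60, SE 0.063, adjusted p = 8.28e-06, edgeR). Its relatives Edem1 (-0.20, adjusted p = 0.212) and Edem2 (-0.02, adjusted p = 0.887) overlapped between groups and did not pass. All 3 derlins, membrane proteins of the exit channel, rose. Derl1 (5.56% shared, uncertain) had 102, 101 and 103 CPM with AMI-5, against 85.6, 86.4 and 74.9 CPM in controls (0.31, SE 0.064, adjusted p = 0.00155, edgeR). Derl2 had 76.8, 65.4 and 72.2 CPM with AMI-5, against 57.7, 55.2 and 58.1 CPM in controls (0.33, SE 0.068, adjusted p = 0.00156, edgeR), but missed the threshold without the trends (0.19, adjusted p = 0.0552). Derl3, whose expression is known to be high in secretory tissue, had 41.0, 30 and 38.2 CPM with AMI-5, against 23.9, 28.0 and 19.6 CPM in controls (0.61, SE 0.153, adjusted p = 0.00952, edgeR). Herpud1, a stress-induced organiser of the Hrd1 complex, had 137, 123 and 129 CPM with AMI-5, against 105, 109 and 80.3 CPM in controls (0.41, SE 0.105, adjusted p = 0.0096, edgeR). AMI-5 library 2, the library with liver transcripts, was the lowest of its group for Derl3 and Herpud1, and without it their log2 fold changes were 0.76 and 0.47.

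**Figure D4:**
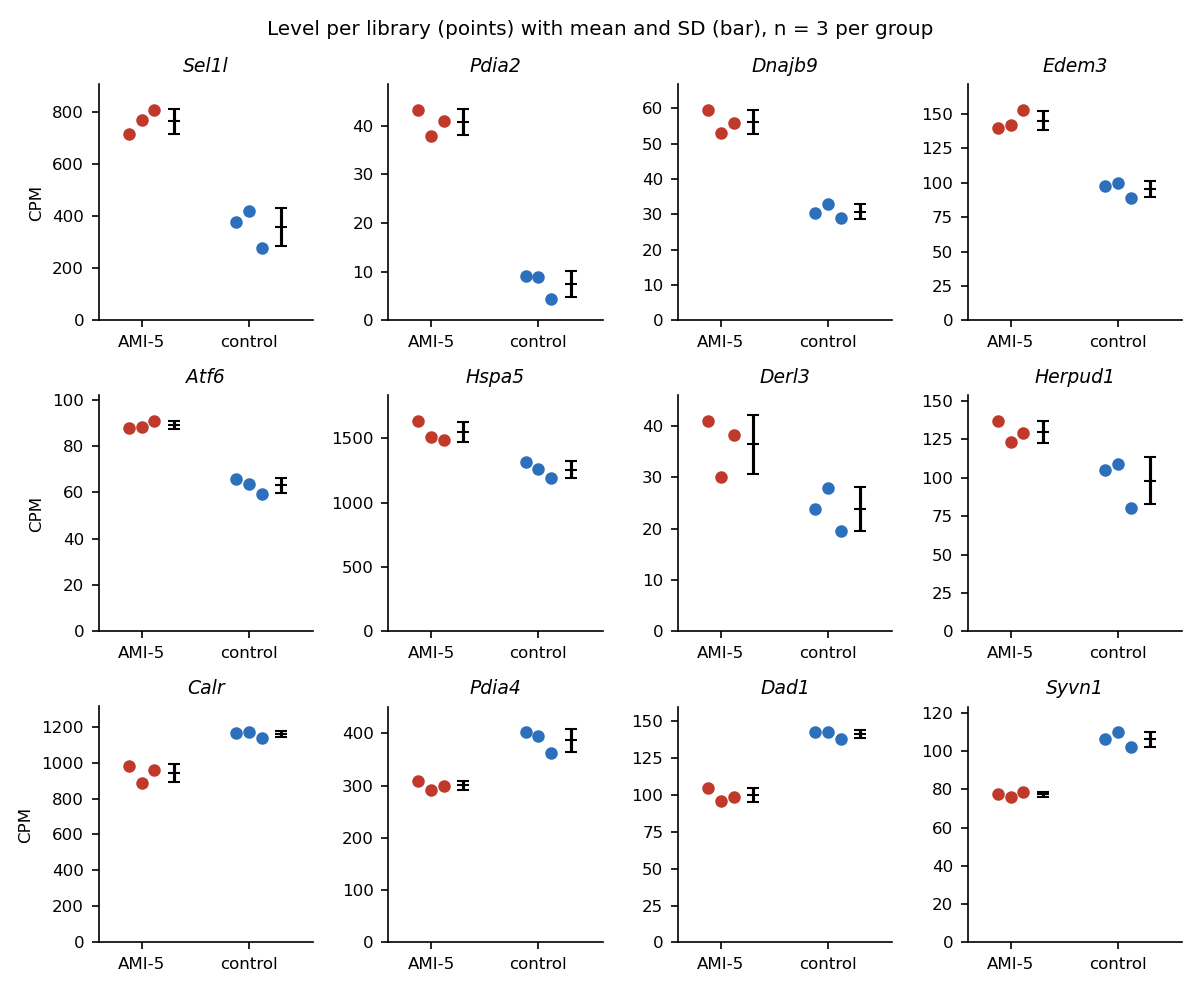
Level in CPM of 12 genes in each library (points; replicates 1 to 3 from left to right), AMI-5 left and control right, with the mean and SD of 3 libraries as a bar; the vertical axes start at 0 and differ between panels. The 8 genes of the upper rows are higher with AMI-5, with Pdia2 and Sel1l farthest apart, and Calr, Pdia4, Dad1 and Syvn1 in the bottom row are lower.

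The COPII coat, which buds vesicles that carry folded protein out of the ER, showed no call in either direction. Sec31a, of the outer coat and the most abundant of the 3 per kilobase, had 236, 252 and 265 CPM with AMI-5, against 276, 296 and 266 CPM in controls (log2 fold change -0.15, SE 0.063, adjusted p = 0.0586, edgeR). The groups were apart, if only by the gap between 265 CPM and 266 CPM. Sec23b, of the inner coat, and Sec24d, the cargo-binding subunit, overlapped, at -0.07 and 0.07.

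Within each group, the 55 genes ran together from library to library. AMI-5 library 2 was the lowest of its group for 39 of the 55 genes (70.9%), as it was for 34.0% of all genes, and control library 3 was the lowest of the controls for 49 (89.1%), as for 34.4% of all genes. These are also the libraries with the least acinar marker RNA of their groups, at 14.6% of reads in AMI-5 library 2 and 6.33% in control library 3; the part of this in the order was not tested. Without AMI-5 library 2, 26 of the 55 genes were higher and 5 lower, beside 4508 higher and 3967 lower of 17064 genes tested. Without control library 3, 23 were higher and 16 lower, beside 4726 higher and 4310 lower of 18453 genes tested.

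**Figure D5:**
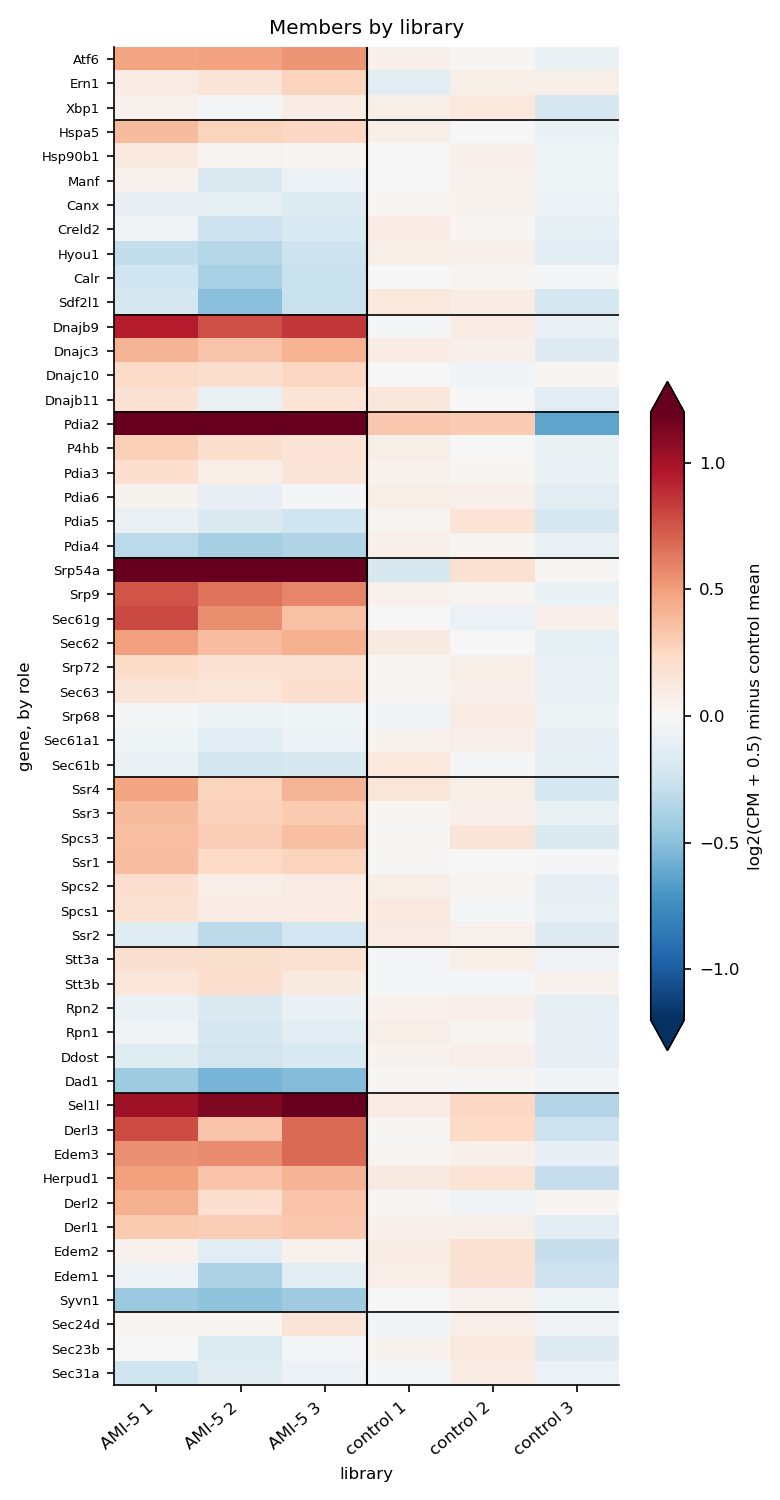
Level of each of the 55 genes (rows, by role) in the 3 AMI-5 libraries (left) and the 3 control libraries (right), as the log2 CPM difference from the mean of the controls; red is higher, blue is lower, and values past the ends of the scale take its end colours. Control library 3 is the bluest of the control columns for most genes, and Pdia2, Srp54a, Sel1l and Dnajb9 are red in every AMI-5 library.

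Other genes of the same pathways had medians near that of all genes, of which 27.5% were higher and 26.6% lower. Among 23 further targeting and translocation genes, 8 rose and 5 fell, and their median log2 fold change was 0. Emc1 (28.4% shared, uncertain), of the membrane insertion complex EMC, had 45.2, 45.8 and 45.8 CPM with AMI-5, against 77.3, 79.6 and 77.2 CPM in controls, and Tmco1, of the multipass translocon, had 80.8, 73.7 and 76.2 CPM, against 53.2, 47.9 and 47.7 CPM. Snd1, the gene of highest CPM in the list, not scaled by length, was among the 5 that fell (-0.26, adjusted p = 0.00663, edgeR). It encodes a nuclease and is held in the list by its symbol, not as a targeting factor. Among 26 further N-glycosylation genes, 8 rose and 6 fell (median 0.03). The small oligosaccharyltransferase subunits Ost4 (-1.11, 49.2% shared, uncertain) and Tmem258 (-0.71, adjusted p = 4.33e-06) fell, as Dad1 did. Other subunits in that list rose, namely Ostc (0.39, adjusted p = 0.000664, edgeR), Magt1 (0.52, adjusted p = 1.08e-05) and Tusc3 (0.21, adjusted p = 0.012). Without the trends they stood at 0.18, 0.23 and 0.06, with Ost4 at -1.17 and Tmem258 at -0.77. Krtcap2 did not pass (-0.12, 12.5% shared, uncertain). Ostc, Magt1, Tusc3 and Krtcap2 were added after their values were seen. Ganab, glucosidase II, did not pass either (-0.13). Among 31 further oxidative folding genes, 10 rose and 9 fell (median 0.02). The thioredoxin-like Tmx3 was at 0.79, the prolyl isomerase Fkbp2 at -0.57 and the collagen chaperone Serpinh1 at -0.41. Without the trends these stood at 0.35, -0.3 and -0.22. Counts higher and lower were then 6 and 7 for targeting and translocation, 5 and 6 for N-glycosylation and 7 and 8 for oxidative folding. Of all genes, 23.1% were then higher and 24.3% lower.

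Among 27 further degradation genes, 10 rose and 8 fell (median 0.02). The ubiquitin-conjugating enzymes Ube2j1 (0.46, adjusted p = 3.04e-05, edgeR) and Ube2j2 (-0.57, adjusted p = 3.27e-05; 9.98% shared, uncertain) moved apart. Os9, a lectin that delivers glycoproteins to Sel1l, was lower, with 175, 156 and 171 CPM with AMI-5, against 215, 226 and 200 CPM in controls (-0.35, adjusted p = 0.000713, edgeR). Without the trends Ube2j1 stood at 0.25, Ube2j2 at -0.53 and Os9 at -0.15. Of the 27 genes, 6 were then higher and 6 lower. Among 28 further COPII and cargo genes, 10 rose and 7 fell (median 0.03). The cargo receptor Tmed2 (1.33, 22.0% shared, uncertain) and the inner coat subunit Sec23a (0.61, 7.86% shared, uncertain) were among those that rose. The cargo receptor Surf4 did not pass (-0.10). Without the trends, 6 of the 28 were higher and 7 lower, with Tmed2 at 1.11 and Sec23a at 0.42.

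The third arm of the unfolded protein response signals through Perk and Atf4, and shares its targets with the response to amino acid shortage. Of 24 genes listed for this arm and the amino acid response together, 16 rose and 3 fell. Among all genes tested, 27.5% rose and 26.6% fell. The genes that fell were Ddit4, Cebpb (18.1% shared, uncertain) and Phgdh (47.8% shared, uncertain). Without the trends Cebpb stood at -0.14, and Phgdh and Ddit4 at -0.39. The median log2 fold change of the 24 was 0.65 as tested. Eif2ak3, which encodes Perk itself, did not pass (0.19, adjusted p = 0.0867, edgeR), and Atf4 rose by less than that median (0.23, adjusted p = 0.0339, edgeR). Ddit3 (CHOP), a transcription factor of prolonged stress, had 54.7, 51.1 and 42.4 CPM with AMI-5, against 16.1, 18.2 and 17.5 CPM in controls (1.51, SE 0.102, adjusted p = 1.51e-07, edgeR). Atf5, a translationally controlled factor of the same arm, had 285, 283 and 258 CPM with AMI-5, against 142, 139 and 124 CPM in controls (1.03, SE 0.068, adjusted p = 1.2e-07, edgeR). The stress cofactor Nupr1, the most abundant of the 24, had 1170, 1039 and 1150 CPM with AMI-5, against 555, 577 and 421 CPM in controls (1.11, SE 0.117, adjusted p = 7.77e-05, edgeR). The groups of Ddit3, Atf5 and Nupr1 were well apart, and 19 of the 24 genes were higher and 2 lower without the trends. In the list of 10 other ER stress factors and proteases tested, 0 were higher and 3 lower, namely Atf6b, a relative of Atf6 (-0.49, adjusted p = 5.19e-05, edgeR), Creb3l1, an ER-bound factor of secretory cells (-0.24, adjusted p = 0.00374), and Mbtps1, the Golgi protease that cuts Atf6 (-0.14, adjusted p = 0.0411). Rtcb, the ligase that rejoins Xbp1 mRNA after Ire1 has cut it, was the most abundant of that list and did not pass (0.06, adjusted p = 0.444). With the trends removed, 2 genes of that list were higher and 1 was lower, and Atf6b stood at -0.17, Creb3l1 at 0.02 and Mbtps1 at -0.05.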

How the data were processed

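RNA-seq read counts per gene were used as the authors deposited them, not normalized, in 1 table of 6 libraries; its gene length column, deposited by the authors in bases, gave levels per kilobase and entered the length trend. GSNAP 2018-05-30, featureCounts 1.6.2 and bcl2fastq 2.19.1 are the tools, and mm10 the build, per the submitters' processing notes. How strand and multi-mapping reads were treated is not given in the sources used here. Spike-ins (92 entries, 1 read in all) were left out.

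Tests used edgeR 4.0.16 under R 4.3.3, with TMM scaling, filterByExpr, robust estimates and the two-sided quasi-likelihood F test for group, over 17519 of 49671 genes. A gene was called at a Benjamini-Hochberg adjusted p under 0.05. The biological coefficient of variation was 9.65%. CPM values were scaled to TMM-adjusted library sizes, and SE is the standard error of a log2 fold change, AMI-5 over control. Symbols, GC content and shared 50-base stretches came from GENCODE M21 (mm10); genes with under 5% shared are called low in shared sequence. GC and length trends were fitted per library with mgcv 1.9.3 over genes low in shared sequence. Alternatives were other scalings, filters, gene sets, DESeq2 1.42.0, limma 3.58.1 voom, thinned reads, a replicate term and leaving out each library; adding reads of near copies was chosen after seeing the data. In simulated data with known changes, the share of false calls was above the nominal 5%, so calls with an adjusted p near the threshold are less certain.

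Genes and lists were chosen with earlier results of these data known. Values are given for the sensors, Hspa5, up to 4 called genes of smallest p per role, the largest change and the highest level per kilobase, and, per other list, 2 called genes of smallest p and the most abundant; Pdia3, Canx, Hsp90b1 and the remaining values beyond these were added after they were seen.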

Additional observations from a re-analysis of the deposited data

How the results depend on the processing

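Of the 55 genes, 25 were higher and 8 lower as tested. The count of higher genes was 16 with GC and length trends removed, with or without a replicate block, and 19 to 29 in every other setting run. The count of lower genes was 17 with library totals alone, 5 among genes low in shared sequence fitted alone, and 5 to 16 when each library was left out in turn (16 without control library 3; 5 without AMI-5 library 2, control library 1 or control library 2). The median log2 fold change was 0.037 with library totals alone, 0.006 with the trends removed and 0.012 with the trends removed and the block. Some genes without a call as tested gained one among the 20 to 22 alternative fits run per gene. Calls as lower were gained by Canx, Creld2 and Sec61b in 4 fits each and by Edem1 in 3. Pdia5, Rpn1, Rpn2 and Sec31a gained them in 2 each and Sec61a1 in 1. Hsp90b1, positive as tested, also passed as lower with the trends removed, without and with the block (adjusted p = 0.00688 and 0.0184, edgeR). Calls as higher were gained by Ern1 in 10, Pdia3 in 8, Spcs2 in 5 and Spcs1 in 3. Over all genes, fitting genes low in shared sequence alone gave 2495 higher and 2733 lower, since fewer genes were tested; library totals alone, which leave out the TMM correction, gave 3962 higher and 5883 lower, so 40.2% of calls were higher rather than 50.9%. Deviations of same-numbered libraries correlated at -0.0579, -0.0377 and -0.048. With 3 libraries per group, these values cannot show whether replicate numbers pair the samples, which the labels do not state. The replicate block gave 26 higher and 10 lower. The direction turned for 14 genes, of which Sec63, Spcs3, Ssr3 and Stt3a had a call, and the cause was not tested. With the trends removed, without and with the block, Hsp90b1 stood at -0.195 and -0.194, Sec63 at -0.107 and -0.107, Srp68 at 0.048 and 0.05, Spcs1 at -0.049 and -0.048, Spcs3 at -0.042 and -0.037, Ssr3 at -0.03 and -0.029, Stt3a at -0.081 and -0.081, and Edem2 at 0.001 and 0.012. With library totals alone, Xbp1 stood at -0.055, Hsp90b1 at -0.036, Dnajb11 at -0.007 and Sec24d at -0.025. With upper-quartile scaling, protein-coding genes alone and genes low in shared sequence alone, Pdia6 stood at 0.02, 0.025 and 0.024, Srp68 at 0.001, 0.007 and 0.006, and Edem2 at 0.027, 0.031 and 0.03; with RLE scaling Edem2 stood at 0. Leaving out a library gave -0.06 to 0.097 for Xbp1, -0.11 to 0.019 for Manf, -0.095 to 0.034 for Pdia6, -0.149 to 0.066 for Edem2 and -0.148 to 0.001 for Sec23b. Depth limits the controls most, with 12445425 to 13321899 reads each, and Srp54a and Sec61g most among the 55 genes.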
